A study of Mus musculus with 8 samples.

Results

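Genes that direct T cells into, within and out of lymphoid organs were examined in regulatory T (Treg) cells with a targeted deletion of Bcl11b, which encodes a DNA-binding regulator of T cell identity. The set holds 9 genes, taken by symbol from the 23997 genes of the deposited table: the chemokine receptors Ccr7, Ccr9 and Cxcr4, the sphingosine-1-phosphate (S1P) receptors S1pr1 and S1pr4, the oxysterol receptor Gpr183, the lectin Cd69, the transcription factor Klf2 and the interleukin-7 receptor chain Il7r. All 9 were measured in every library and all 9 passed the filter on low values. Per the labels, CD4+YFP+ cells of C57BL/6 mice were sorted to a purity above 97%, starting from spleen and draining lymph nodes. Bcl11b-deficient cells came from Bcl11b f/f Foxp3-YFP-Cre/+ mice and Bcl11b-sufficient cells from Bcl11b f/+ Foxp3-YFP-Cre/+ mice, with 4 columns of values for each of the 2 groups. Both groups thus carry the Cre at 1 Foxp3 allele, and Foxp3 lies on chromosome X. Floxed Bcl11b is open to deletion in cells that use the Cre-bearing allele, the YFP+ cells sorted here. The sufficient cells also carry 1 floxed Bcl11b copy, open to the same deletion, beside 1 copy that is not floxed. The sources used here do not give the age of the animals or say which column comes from which animal.

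CCR7 guides T cells across high endothelial venules into lymph nodes, where its ligands CCL19 and CCL21 are made. S1PR1 draws them out again along the S1P gradient towards lymph and blood, and CD69, an early activation antigen, holds S1PR1 inside the cell and so delays exit. KLF2 maintains transcription of S1pr1 in resting T cells. CXCR4 and GPR183 position cells near CXCL12 and near oxysterols inside lymphoid tissue, CCR9 guides cells to the small intestine, and IL-7 receptor signalling keeps resting T cells alive.

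Values were FPKM, fragments per kilobase of transcript scaled to the library's total, so that levels of different genes can be compared per length. The 8 columns were taken as 5 libraries. In the deficient group replicate 1 nearly repeated replicate 3 and replicate 2 nearly repeated replicate 4, as did replicates 1 and 3 of the sufficient group. These pairs were close to what read sampling alone gives (a spread of at most 1.25 times that noise, against 1.65 to 2.76 times in the 9 other pairs of 1 group). Each of these pairs was averaged and counted as 1 sample, leaving 2 deficient and 3 sufficient libraries. Depth, read from the steps between low values, was approximately 2850000 to 12900000 fragments per column. The thinnest member value rested on approximately 72.8 fragments per kilobase, for Gpr183. Bcl11b itself fell to 21.7 ± 3.83 FPKM in deficient libraries, against 42.7 ± 3.68 FPKM in sufficient libraries (SD, n = 2 and 3, limma adjusted p = 0.0238), 50.8% of the sufficient level. A value over the whole gene does not measure the floxed part by itself. Foxp3, which defines Treg cells, was at 153 ± 0.517 FPKM in deficient libraries and 187 ± 18.8 FPKM in sufficient libraries, and Cd4 at 292 ± 4.33 FPKM in deficient libraries and 260.1 ± 15.9 FPKM in sufficient libraries. Sufficient replicate 4 stands apart in that a small RNA, Snora61, was its most abundant entry at 31183 FPKM. Since no label ties the 5 libraries to separate animals, a p-value here reflects only their spread, part of which may be technical.

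Bcl11b-deficient Treg cells had less transcript of the lymph node entry receptor Ccr7, and the other 8 members did not pass the test. Ccr7 was at 54.9% of its sufficient level. The largest difference in size was that of Cxcr4, at 25.3% of the sufficient level, which did not pass, its sufficient libraries running from 59.8 to 272 FPKM. Ccr9 and Il7r averaged 165% and 148% of the sufficient level in deficient cells, with overlapping libraries for Il7r. The exit receptors S1pr1 and S1pr4 were at 86.2% and 116% of the sufficient level, and Klf2 and Cd69 varied more between libraries of 1 group than between groups. Each log2 fold change is the deficient minus the sufficient mean of log2(FPKM + 1), which understates changes of low genes, and a gene was called at a limma Benjamini-Hochberg adjusted p under 0.05.

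Of the 9 members, 0 were called higher and 1 lower. Among all 10614 tested genes, 1.93% were called higher and 0.697% lower, 2.63% in either direction. At an unadjusted p under 0.05, limma picked 3 of the 9 members (Ccr7, Cxcr4 and Ccr9), against 17.8% of all tested genes. The members' log2 fold changes were negative for 6 and positive for 3, with a median of -0.23, against -0.01 over all tested genes. The libraries of the groups did not overlap for 5 members, of which Ccr7, Cxcr4 and Gpr183 were lower and Ccr9 and S1pr4 higher in deficient cells. Libraries did not overlap for 36.7% of all tested genes, 18.9% higher and 17.9% lower, so that this count is read against a frequent event in a comparison of 2 with 3 libraries. At that size the exact permutation test cannot give a p below 0.1. In bulk RNA, fewer cells that express a gene and less RNA per cell cannot be told apart.

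**Figure D1:**
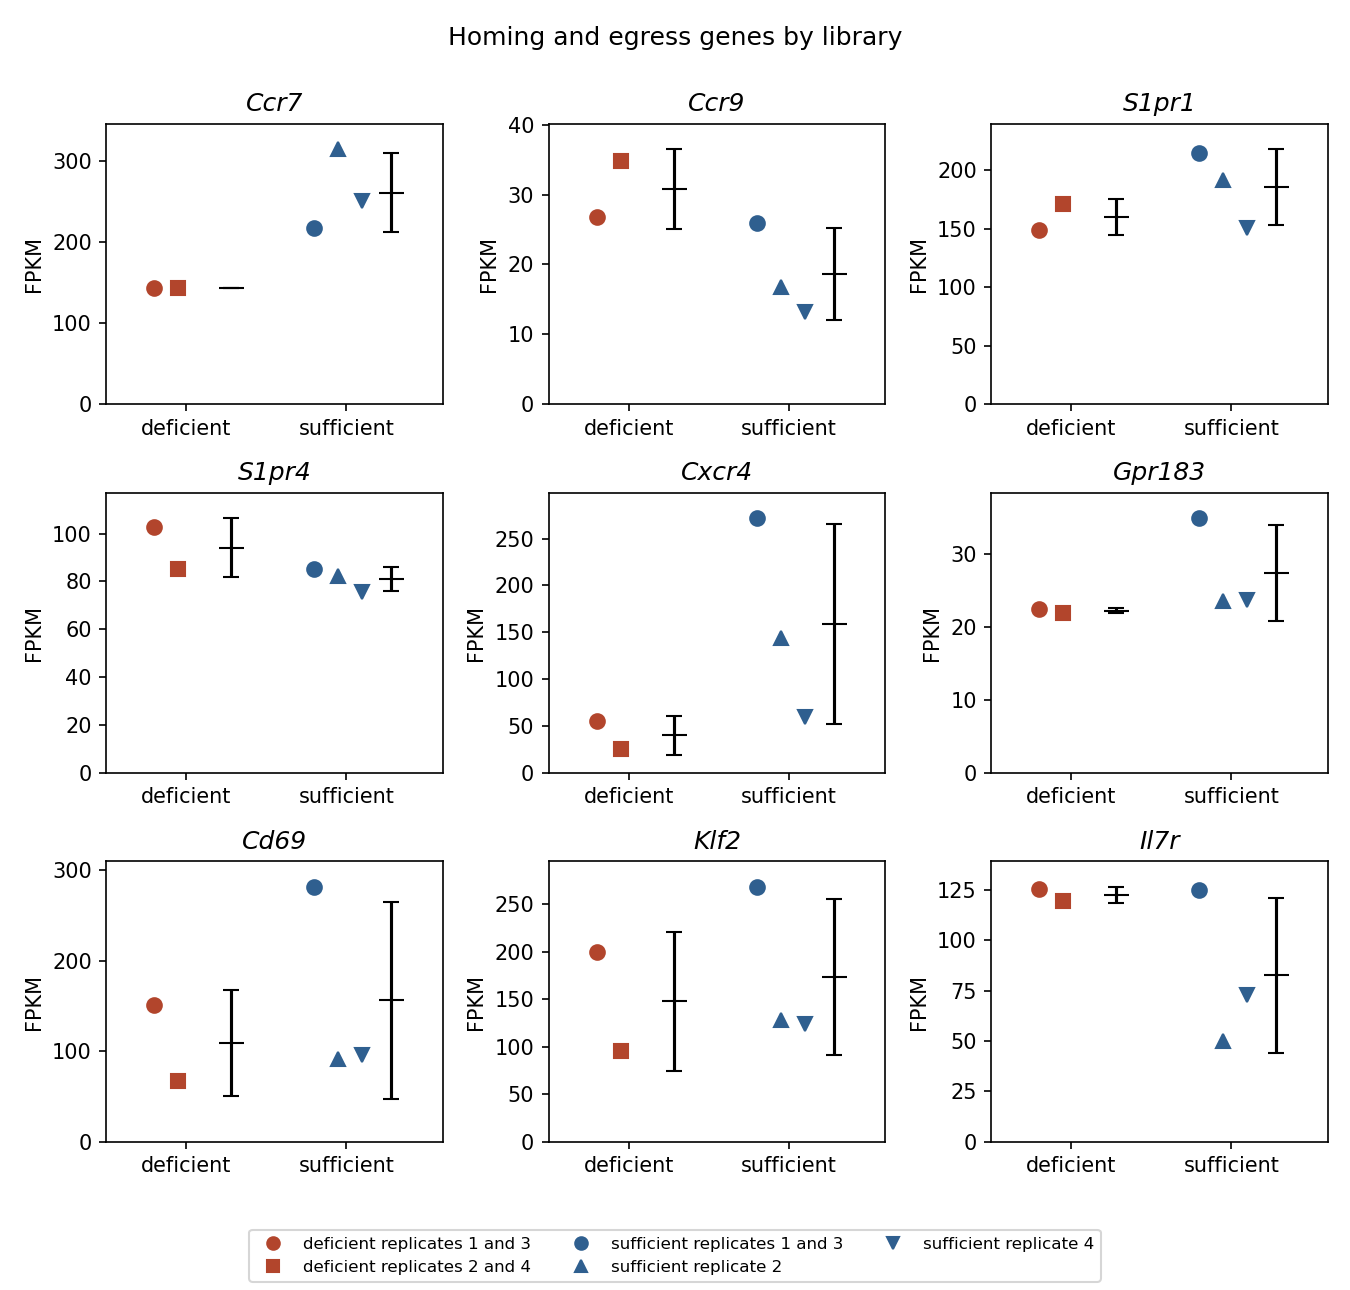
Level of each of the 9 genes in FPKM (vertical axes, starting at 0) in the 2 deficient libraries (red, left) and the 3 sufficient libraries (blue, right), with marker shape for the library; dashes and bars give the group mean and SD. The deficient points of Ccr7 and Cxcr4 lie below all sufficient points. The round markers of replicates 1 and 3 are the highest of their group for Cxcr4, Cd69 and Klf2, and also for S1pr4, Gpr183 and Il7r.

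Ccr7 (ENSMUSG00000037944.8, chromosome 11, 99144196 to 99155077, minus strand of GRCm38, protein coding) measured 143, 138, 144 and 150.1 FPKM in deficient replicates 1 to 4, against 221, 315, 216 and 252 FPKM in sufficient replicates 1 to 4. Every deficient column was lower than every sufficient column, and the deficient libraries were close to each other while sufficient replicate 2 stood highest. The means were 144 ± 0.228 FPKM in deficient libraries and 262 ± 49.2 FPKM in sufficient libraries (SD, n = 2 and 3). The log2 fold change of Ccr7 was -0.84 (SE 0.16, 95% interval -1.22 to -0.46, limma adjusted p = 0.0464), and the exact permutation test gave p = 0.1. It stood at position 72 by p among the genes with a negative change. The call is close to the threshold: it was absent in 13 of 21 alternative analyses, in which the log2 fold change stayed between -0.97 and -0.63 and the adjusted p ran from 0.00165 to 0.257. Among them the call ended without sufficient replicate 2 (log2 fold change -0.70, adjusted p = 0.0639), without sufficient replicate 4 (-0.86, 0.103), without deficient replicate 2 (-0.81, 0.0538) or 3 (-0.84, 0.0510), and without the deficient library of replicates 1 and 3 (-0.84, 0.257) or of replicates 2 and 4 (-0.84, 0.238). It held without the sufficient library of replicates 1 and 3 (-0.97, 0.0467). The lowest limma adjusted p of Ccr7, 0.00165, came from the 8 columns taken as separate libraries. That fit counts repeated columns of 1 library as independent. So does the fit over the 8 columns with the replicate number as a block (limma adjusted p = 0.00819), which also kept the call.

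Ccr9, the receptor for CCL25 made in thymus and small intestine, measured 26.9, 33.4, 26.6 and 36.2 FPKM in deficient replicates 1 to 4, against 25.8, 16.7, 26.1 and 13.2 FPKM in sufficient replicates 1 to 4. The deficient library of replicates 1 and 3 was barely above the sufficient library of replicates 1 and 3, at 26.8 against 26.0 FPKM, while the others were farther apart. The log2 fold change was 0.74 (SE 0.26, 95% interval 0.12 to 1.35) and did not pass (limma adjusted p = 0.213, exact permutation p = 0.2). Annotated exons of Ccr9 share 1932 of 10260 bases with a transcript on the other strand, AC165425.1, so reads there cannot be assigned to either if counting ignored strand. They also share 269 bases with Gm17200, a noncoding RNA on the same strand, where counting by strand does not separate the genes.

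The exit receptors were abundant in both groups. S1pr1 measured 147, 171, 151 and 171 FPKM in deficient replicates 1 to 4, against 214, 191, 215 and 151 FPKM in sufficient replicates 1 to 4. The groups overlapped, with sufficient replicate 4 at the level of the deficient libraries. The log2 fold change was -0.20 (SE 0.17, 95% interval -0.59 to 0.19, limma adjusted p = 0.575), and it turned to 0.01 when libraries were scaled to equal totals. That scaling put the median over all tested genes at 0.18. S1pr4, a second S1P receptor of lymphocytes, was at 103 and 85.3 FPKM in the deficient libraries, against 85.0, 82.4 and 75.4 FPKM in the sufficient libraries. The second deficient library thus lay just above the first sufficient library. Its log2 fold change was 0.21 (SE 0.12, 95% interval -0.07 to 0.49, limma adjusted p = 0.416). Both intervals exclude a 2-fold difference in either direction for these receptors, on the log2(FPKM + 1) scale.

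Receptors of position and retention differed more between libraries. Cxcr4 (ENSMUSG00000045382.6, chromosome 1, 128588199 to 128592293, minus strand) measured 54.4, 25.8, 55.2 and 25.1 FPKM in deficient replicates 1 to 4, against 279, 144, 264 and 59.8 FPKM in sufficient replicates 1 to 4. All deficient columns lay below all sufficient columns, but sufficient replicate 4 came within 5 FPKM of the higher deficient library. The means were 40.1 ± 20.8 FPKM in deficient libraries and 159 ± 107 FPKM in sufficient libraries (SD, n = 2 and 3). The log2 fold change of -1.80 (SE 0.59, 95% interval -3.20 to -0.40) was the most negative of the members and did not pass (limma adjusted p = 0.184, exact permutation p = 0.2). With the 8 columns taken as separate libraries it was -2.06 (limma adjusted p = 0.0158), a fit that counts repeated columns of 1 library as independent, and over all alternatives the adjusted p ran from 0.00194 to 0.527. Gpr183 was at 22.5 and 22.0 FPKM in the deficient libraries, against 35.0, 23.5 and 23.8 FPKM in the sufficient libraries. The sufficient library of replicates 1 and 3 stood above the other 4, which were close together. Gpr183 did not pass, at a log2 fold change of -0.27 with an SE of 0.18 (limma adjusted p = 0.488), and of -0.09 without that library. The Gpr183 gene lies inside Ubac2, transcribed from the other strand, and shares 0 exon bases with it.

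Cd69 and Klf2 act on S1PR1 from opposite sides, at its surface display and at its transcription. Cd69 measured 148, 64.1, 153 and 70.4 FPKM in deficient replicates 1 to 4, against 268, 91.1, 294 and 95.6 FPKM in sufficient replicates 1 to 4. Klf2 measured 206, 96.2, 194 and 95.2 FPKM in deficient replicates 1 to 4, against 272, 128, 264 and 123 FPKM in sufficient replicates 1 to 4. In both groups replicates 1 and 3 were highest for both genes, and the groups overlapped. Neither passed, with a log2 fold change of -0.42 for Cd69 (SE 0.53, limma adjusted p = 0.723) and -0.23 for Klf2 (SE 0.41, limma adjusted p = 0.816). Their 95% intervals, from -1.67 to 0.83 for Cd69 and from -1.19 to 0.74 for Klf2, leave room for a 2-fold difference downward. At each replicate number the deficient column was below the sufficient column for both genes, although no label says that a number marks a batch. These are not 4 separate comparisons. Replicates 1 and 3 repeat 1 library in each group, and deficient replicates 2 and 4 repeat another. The sign changed with the libraries included. It was positive without the deficient library of replicates 2 and 4 (log2 fold change 0.16 for Cd69 and 0.30 for Klf2). It was also positive without the sufficient library of replicates 1 and 3 (0.11 for Cd69 and 0.14 for Klf2). Each omission changes how replicates 1 and 3, the highest in both groups, weigh between the groups.

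Il7r, the interleukin-7 receptor alpha chain that is typically low on Treg cells, measured 125, 119.8, 126 and 119 FPKM in deficient replicates 1 to 4, against 122, 49.9, 129 and 72.6 FPKM in sufficient replicates 1 to 4. The deficient libraries lay within 6 FPKM of each other, and the sufficient library of replicates 1 and 3 stood at their level while sufficient replicates 2 and 4 were lower. The log2 fold change was 0.66 (SE 0.33, 95% interval -0.12 to 1.45) and did not pass (limma adjusted p = 0.351, exact permutation p = 0.3). It was 1.01 without the sufficient library of replicates 1 and 3 (limma adjusted p = 0.0624, within a range of 0.0624 to 0.681 over the alternatives).

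**Figure D2:**
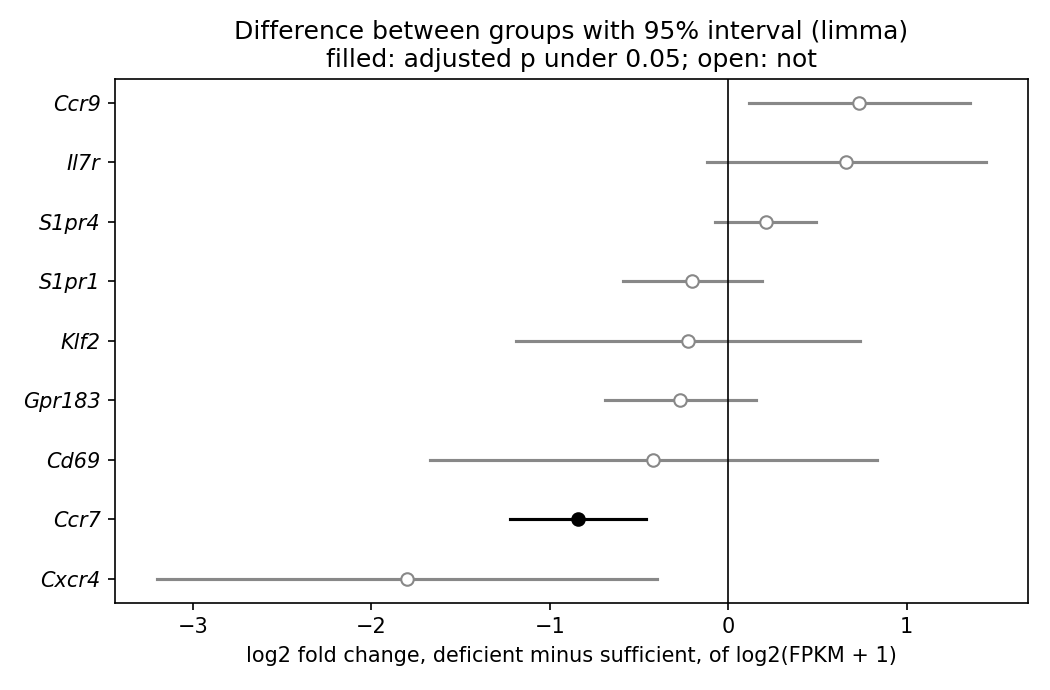
Log2 fold change of each of the 9 genes, deficient minus sufficient (horizontal axis), with its 95% interval from limma; the filled point passed an adjusted p of 0.05. Ccr7 passed at -0.84, the interval of Cxcr4 is the widest, from -3.20 to -0.40, and those of S1pr1 and S1pr4 are short and include 0.

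By mean level, the members came in another order in the groups. In deficient libraries the highest were S1pr1 at 159.9 ± 15.7 FPKM, Klf2 at 148 ± 73.6 FPKM and Ccr7 at 144 ± 0.228 FPKM. Il7r at 122 ± 4.06, Cd69 at 109 ± 58.9 and S1pr4 at 94.1 ± 12.4 FPKM followed, and Cxcr4 at 40.1 ± 20.8, Ccr9 at 30.8 ± 5.71 and Gpr183 at 22.2 ± 0.326 FPKM were lowest (SD, n = 2). In sufficient libraries Ccr7 was highest at 262 ± 49.2 FPKM, followed by S1pr1 at 185 ± 32.3 and Klf2 at 173 ± 82.4 FPKM. Next were Cxcr4 at 159 ± 107, Cd69 at 156 ± 109 and Il7r at 82.5 ± 38.6 FPKM, and then S1pr4 at 80.9 ± 4.97, Gpr183 at 27.4 ± 6.53 and Ccr9 at 18.6 ± 6.58 FPKM (SD, n = 3). In deficient cells the steps from Ccr7 to Il7r, from S1pr4 to Cxcr4 and from Ccr9 to Gpr183 were larger than the SD of either neighbour, and the other steps were not. In sufficient cells this held for the steps from Ccr7 to S1pr1, from S1pr4 to Gpr183 and from Gpr183 to Ccr9.

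Klf2, Cxcr4 and Cd69 shared a spread between libraries. In the deficient group the library of replicates 1 and 3 was 2.09 times the other for Klf2, 2.16 times for Cxcr4 and 2.24 times for Cd69. Among the sufficient libraries the highest, again that of replicates 1 and 3, was 2.17 times the lowest for Klf2, 4.55 times for Cxcr4 and 3.09 times for Cd69. Only 24 of the 10614 tested genes (0.226%) were at least 2-fold apart in both groups and highest in replicates 1 and 3 of both. This pattern was picked out after the values were seen and is a description with no test. Of the immediate-early and dissociation-sensitive list, which holds genes that activation or handling of cells induces within minutes, 5 of 21 tested members shared it: the AP-1 genes Fosb, Jun and Junb, the phosphatase gene Dusp1 and the heat shock gene Hspa1a. The remaining genes of the 24 included Tnfaip3, a feedback inhibitor of NF-kB, the kinase gene Sik1, Plk2, Rhob, Trib1, Dnajb4, Mdk and Tnfrsf13b. The rest were Apol8, Bambi, Eif3j1, Grifin, Hist2h2ac, Mboat4, 1110020A21Rik and 4930539J05Rik. The immediate-early and dissociation-sensitive list summed to 4335 and 2250.3 FPKM in the deficient libraries, against 4814, 3342 and 2536 FPKM in the sufficient libraries. This sum was highest in replicates 1 and 3 of both groups. The part of that list in the member values was not tested.

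**Figure D3:**
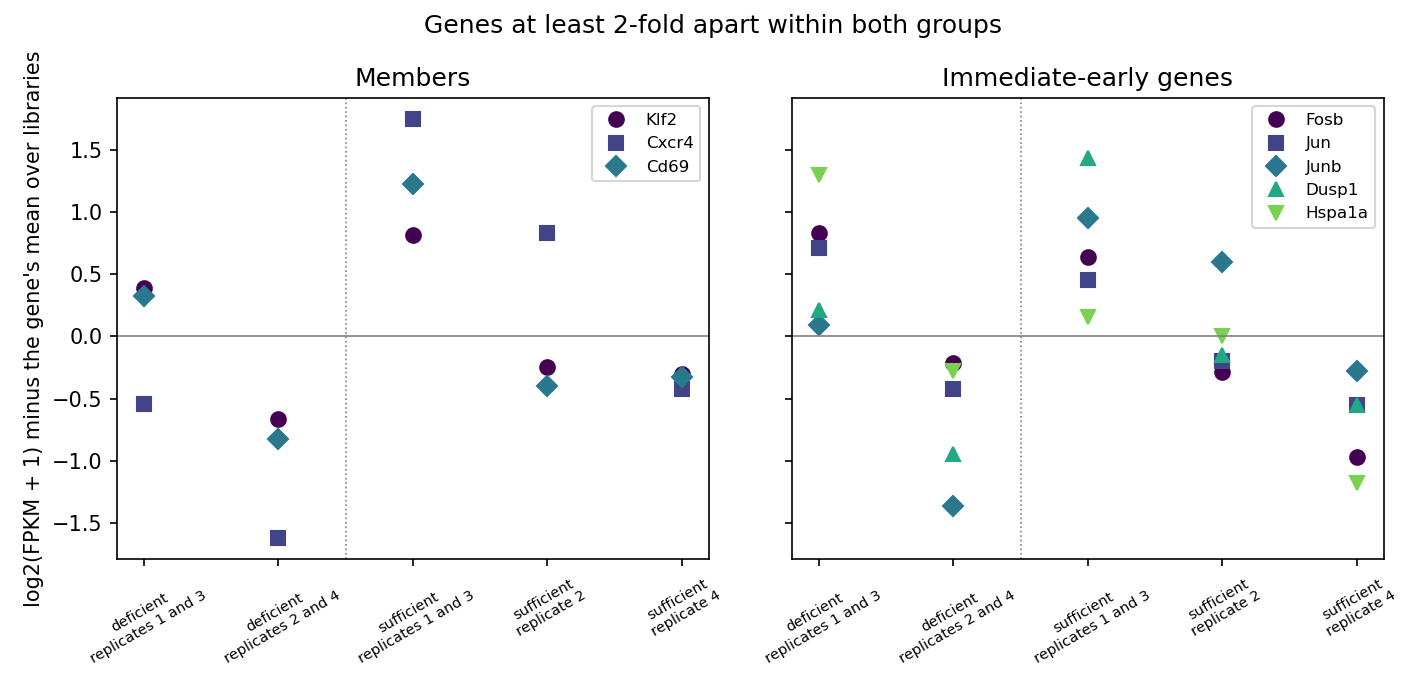
Level of each gene in the 5 libraries as log2(FPKM + 1) minus the gene's own mean over libraries (vertical axis), for 3 members (left panel) and 5 immediate-early genes (right panel); the dotted line divides deficient (left) from sufficient (right) libraries. All 8 genes were picked for being at least 2-fold apart within both groups and highest in the library of replicates 1 and 3 of both. Their shared order is thus the selection rule and not a finding. Immediate-early genes without this pattern are not shown.

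Promoter sequences are shown for Cxcr4 and Klf2 because both genes had this spread between libraries. RefSeq windows of GRCm38.p6 were held for 6 of the 9 members, among them Cxcr4 and Klf2. The 250 bases before the start are shown 5′ to 3′ on the gene's own strand, at chr1:128592300-128592549 on the minus strand for Cxcr4 and at chr8:72318812-72319061 on the plus strand for Klf2. Capitals mark matches, on either strand, to CACCC (the CACCC box of KLF factors), GCCNCGCC (a GC-box core that SP and KLF factors bind), TGANTCA (AP-1), TGACGTCA (the cyclic AMP response element) and TATAAA.
Cxcr4: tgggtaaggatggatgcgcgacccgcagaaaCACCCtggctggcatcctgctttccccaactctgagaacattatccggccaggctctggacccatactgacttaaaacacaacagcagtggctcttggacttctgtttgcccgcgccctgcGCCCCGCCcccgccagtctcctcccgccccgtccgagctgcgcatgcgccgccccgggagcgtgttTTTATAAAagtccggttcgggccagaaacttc
Klf2: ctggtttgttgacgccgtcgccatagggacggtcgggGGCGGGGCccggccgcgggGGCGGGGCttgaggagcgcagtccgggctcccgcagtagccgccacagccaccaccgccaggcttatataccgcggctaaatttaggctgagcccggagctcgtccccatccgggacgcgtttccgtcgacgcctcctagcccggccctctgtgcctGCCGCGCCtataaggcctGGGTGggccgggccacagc
Cxcr4 held 1 match to GCCNCGCC and Klf2 held 3, and the other 4 members with a window held 0, where 18.2% of 32851 mouse windows of the same length hold at least 1. CACCC occurred 1 time each in Cxcr4, Klf2, Ccr9 and S1pr4 and not in Gpr183 or Il7r, and 52% of all windows hold it. TATAAA was found on both strands, with overlapping letters, just before the start of Cxcr4 alone of the 6, and 12.4% of windows hold it. Neither the AP-1 nor the cyclic AMP letters occurred in any of the 6 windows, against 6.75% and 1.55% of all windows. These matches describe letters and not binding.

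The genes most like Ccr7 over the 5 libraries, by the root mean square difference of centred log2(FPKM + 1) values, were Samd11 (0.07), Mgmt (0.08) and Dst (0.08), at mean levels far below that of Ccr7. Samd11 lay at 0.40 to 1.76 FPKM, where the added 1 understates its change, so its likeness depends on that scale. The genes most like Cxcr4 were the nuclear receptor gene Nr4a2 (0.37), the phosphatase gene Dusp5 (0.44) and Sik1 (0.44). Nr4a2, an immediate-early gene, measured 10.2 and 3.51 FPKM in the deficient libraries, against 27.5, 30.5 and 8.94 FPKM in the sufficient libraries. Its lowest value lay in the same library of each group as that of Cxcr4, which its choice by likeness favours. Its highest sufficient value lay in replicate 2, and that of Cxcr4 in the library of replicates 1 and 3.

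Other genes of these pathways were then read from the same fit. Of the lymph node entry list, limma called 0 of 14 tested genes in either direction (2 at an unadjusted p under 0.05, median log2 fold change -0.18, against -0.01 for all tested genes). The integrin gene Itga4 measured 112 ± 1.18 FPKM in deficient libraries and 76.1 ± 13.7 FPKM in sufficient libraries (limma adjusted p = 0.121), and the chemokine receptor gene Ccr6 11.8 ± 0.681 FPKM in deficient libraries and 15.3 ± 0.644 FPKM in sufficient libraries (limma adjusted p = 0.161).

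S1P receptors and metabolism gave 0 of 11 tested genes called by limma (2 at an unadjusted p under 0.05, median -0.04), with the ceramidase gene Asah1 at 14.4 ± 2.03 FPKM in deficient libraries and 10.3 ± 0.615 FPKM in sufficient libraries (limma adjusted p = 0.138) and the S1P phosphatase gene Sgpp1 at 21.8 ± 2.2 FPKM in deficient libraries and 28.8 ± 4.56 FPKM in sufficient libraries (0.265). Of the list of Klf2 and Foxo1 control, limma called 0 of 24 (4 at an unadjusted p under 0.05, median 0.02). Klf7, of the same factor family as Klf2, measured 11.4 ± 2.78 FPKM in deficient libraries and 5.80 ± 1.07 FPKM in sufficient libraries (limma adjusted p = 0.0734), and Phlpp1, an AKT phosphatase gene, 6.38 ± 0.449 FPKM in deficient libraries and 9.29 ± 1.09 FPKM in sufficient libraries (0.142). Foxo1, which drives transcription of Klf2, Ccr7 and Il7r in T cells, was at 85.9 ± 0.869 FPKM in deficient libraries and 88.6 ± 7.70 FPKM in sufficient libraries, with a 95% interval of -0.30 to 0.22 for its log2 fold change.

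Signalling downstream of the receptors held 3 of the calls. In the list of chemokine receptor signalling 1 of 35 tested genes was called higher and 2 lower (median -0.09), where 1.93% of all tested genes were called higher and 0.697% lower. The 3 genes encode regulators of G protein signalling, proteins that shorten the signal of G protein-coupled receptors, and the list's other tested genes of that name (Rgs2, Rgs14, Rgs16 and Rgs19) did not pass, at adjusted p = 0.328, 0.761, 0.284 and 0.516. Rgs1 fell to 172 ± 16.7 FPKM in deficient libraries, against 307 ± 37.3 FPKM in sufficient libraries (log2 fold change -0.83, SE 0.14, limma adjusted p = 0.0350). Rgs10 fell to 190.0 ± 2.92 FPKM in deficient libraries, against 307 ± 26.9 FPKM in sufficient libraries (log2 fold change -0.68, SE 0.12, limma adjusted p = 0.0358). Rgs3 rose to 56.0 ± 1.18 FPKM in deficient libraries, against 33.0 ± 3.29 FPKM in sufficient libraries (log2 fold change 0.75, SE 0.11, limma adjusted p = 0.0261). The receptor kinase gene Grk5 measured 3.27 ± 0.0396 FPKM in deficient libraries and 1.54 ± 0.184 FPKM in sufficient libraries (limma adjusted p = 0.0729), and Tln1, which links integrins to actin, 183 ± 10.3 FPKM in deficient libraries and 139.8 ± 12.2 FPKM in sufficient libraries (0.151). Without deficient replicates 1 and 3 the adjusted p was 0.166 for Rgs1, 0.177 for Rgs3 and 0.224 for Rgs10, and without deficient replicates 2 and 4 it was 0.212, 0.157 and 0.188. Without sufficient replicates 1 and 3 it was 0.0915, 0.0652 and 0.108 for the same genes, and single columns ended the call for Rgs1 (0.0842 without sufficient replicate 4), Rgs3 (0.0648 without sufficient replicate 2) and Rgs10 (0.0520 and 0.0859 without sufficient replicate 2 or 4). With no filter on low values all 3 calls ended (0.0950, 0.0647 and 0.0814), and that of Rgs10 also ended at a mean of at least 5 FPKM (0.0538) and with equal totals (0.0526).

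IL-7 receptor signalling gave 0 of 16 tested genes called by limma (median -0.11). At an unadjusted p under 0.05 limma picked 5 lower and 1 higher, against 17.8% of all tested genes in either direction. Cish, a feedback inhibitor of STAT5 signalling, measured 82.9 ± 12.8 FPKM in deficient libraries and 128 ± 14.3 FPKM in sufficient libraries (limma adjusted p = 0.0770), and the repressor gene Gfi1 13.9 ± 1.37 FPKM in deficient libraries and 19.9 ± 1.87 FPKM in sufficient libraries (0.104). Of the ligands and ligand-making enzymes only 4 of 14 were abundant enough to test and limma called 0 (0 at an unadjusted p under 0.05), with Ccl21b and Ccl21c listed at 0 in every library. Of these, Myl12a, whose product binds CD69, measured 158 ± 11.3 FPKM in deficient libraries and 179.8 ± 12.7 FPKM in sufficient libraries, and Ccl25, the CCR9 ligand gene, 2.01 ± 1.09 FPKM in deficient libraries and 2.36 ± 0.877 FPKM in sufficient libraries. Within the immediate-early list limma called 0 of 21 (1 at an unadjusted p under 0.05, median -0.11), with Nr4a2 and Junb lowest by p (limma adjusted p = 0.217 and 0.313).

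Genes of tissue residency, the state in which T cells stay in a tissue and do not recirculate, had 2 of 13 tested members called higher and 1 lower (median 0.08), where 2.63% of all tested genes were called in either direction. Cd9, a tetraspanin gene, rose to 101 ± 13.7 FPKM in deficient libraries, against 47.2 ± 1.099 FPKM in sufficient libraries (log2 fold change 1.08, SE 0.11, limma adjusted p = 0.00982). Runx3, a transcription factor of cytotoxic and resident T cells, rose to 31.3 ± 0.403 FPKM in deficient libraries, against 18.7 ± 2.06 FPKM in sufficient libraries (log2 fold change 0.72, SE 0.12, limma adjusted p = 0.0341). Itgae, the integrin chain that binds E-cadherin and holds resident cells in epithelium, fell to 6.36 ± 2.75 FPKM in deficient libraries, against 19.5 ± 5.51 FPKM in sufficient libraries (log2 fold change -1.49, SE 0.28, limma adjusted p = 0.0448). The called members thus did not move one way. The chemokine gene Xcl1 measured 18.95 ± 8.27 FPKM in deficient libraries and 8.06 ± 1.82 FPKM in sufficient libraries (limma adjusted p = 0.0988), and the transcription factor gene Bhlhe40 32.5 ± 11.02 FPKM in deficient libraries and 104.9 ± 85.1 FPKM in sufficient libraries (0.251). The Cd9 call ended only without deficient replicates 2 and 4 (0.0797), among the 21 alternatives. The calls of Runx3 and Itgae ended without either deficient library (0.202 and 0.252 without replicates 1 and 3, 0.193 and 0.0912 without replicates 2 and 4). They also ended without the sufficient library of replicates 1 and 3 (0.0655 and 0.0515), sufficient replicate 2 (0.0592 and 0.0917) or sufficient replicate 4 (0.0715 and 0.0876), and that of Itgae also without sufficient replicate 1 (0.0503). Both ended with no filter on low values (0.0814 and 0.136), and that of Itgae also with a pseudocount of 0.1 (0.0530), at a mean of at least 5 FPKM (0.0585), with robust empirical Bayes (0.0616) and with no mean-variance trend (0.0620).

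**Figure D4:**
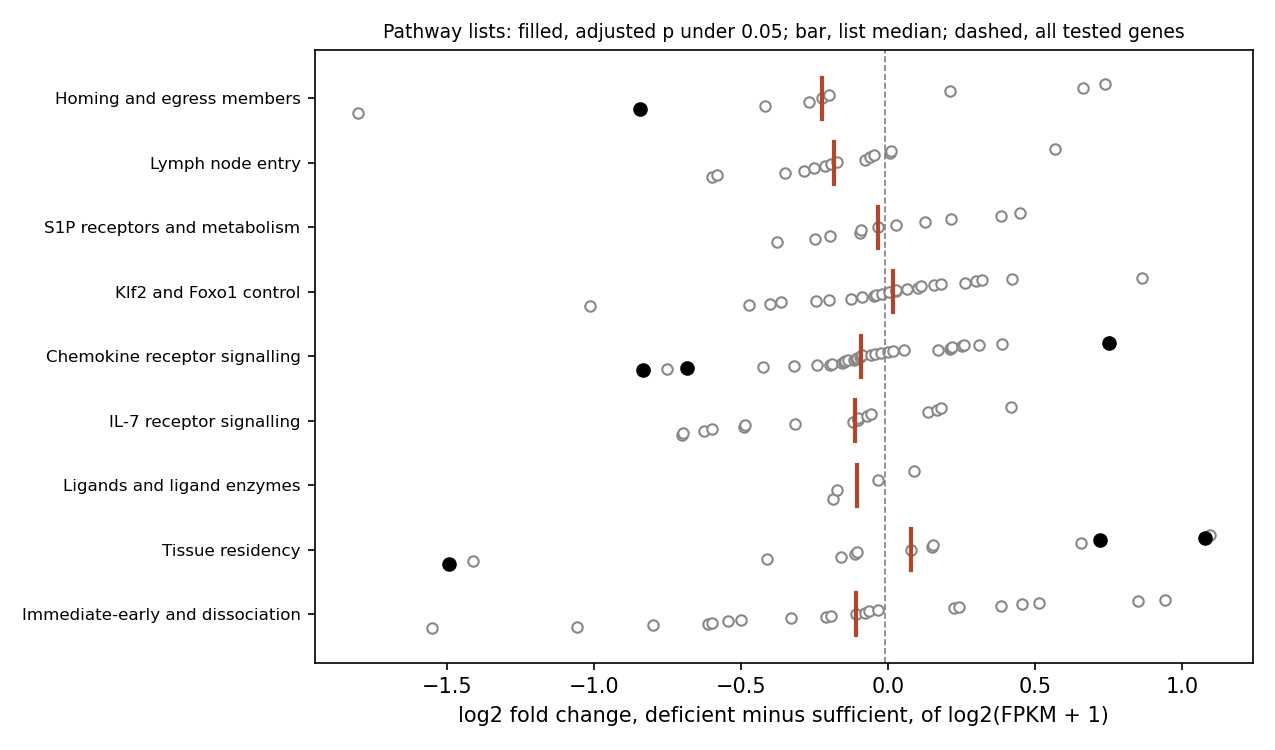
Log2 fold change, deficient minus sufficient (horizontal axis), of every tested gene of 9 lists (rows); filled points passed an adjusted p of 0.05, red bars are list medians and the dashed line is the median of all tested genes, -0.01. Filled points stand on both sides in the signalling and residency lists, and Ccr7 is the filled point of the first row.

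Several marker lists of other cells, some of which express these genes, moved with the groups, and other lists did not. Over all tested genes, 1.93% were called higher and 0.697% lower. Of the macrophage and monocyte list 9 of 17 tested genes were called higher and 0 lower, with a summed level of 425 to 795 FPKM in deficient libraries and 36.0 to 113 FPKM in sufficient libraries, and none of its 18 genes in the table at 0 in every library. Lyz2 measured 110.1 ± 67.5 FPKM in deficient libraries and 8.64 ± 5.93 FPKM in sufficient libraries, and C1qa 67.8 ± 40.9 FPKM in deficient libraries and 7.74 ± 5.92 FPKM in sufficient libraries. Conventional CD4 T cell markers, of cells that typically carry more Il7r than Treg cells do, had 2 of 9 called higher (Pde3b and Dapl1) and 0 lower, and summed to 1084 to 1167 FPKM in deficient libraries and 839 to 853 FPKM in sufficient libraries. Its most abundant genes were Tcf7 at 455 ± 25.5 FPKM in deficient libraries and 339.8 ± 13.4 FPKM in sufficient libraries, and Igfbp4 at 169 ± 16.8 FPKM in deficient libraries and 153 ± 23.0 FPKM in sufficient libraries. NK cell markers summed to 109 to 119 FPKM in deficient libraries and 11.99 to 30.9 FPKM in sufficient libraries, with 3 of 7 called higher (Klrd1, Gzma and Tyrobp). A large part of the sum was Tyrobp alone, at 64.9 and 38.6 FPKM in the deficient libraries, against 1.41, 10.5 and 5.30 FPKM in the sufficient libraries. Dendritic cell markers, of cells that use CCR7 as well, summed to 231 to 284 FPKM in deficient libraries and 141 to 221 FPKM in sufficient libraries, with 2 of 6 called higher (Batf3 and Siglech). B cell markers summed to 18.8 to 22.0 FPKM in deficient libraries and 14.8 to 24.3 FPKM in sufficient libraries, with Ly6d called higher among 3 tested. Cd79b, another of the 3, went the other way and was not called (limma adjusted p = 0.272). It measured 7.65 ± 1.56 FPKM in deficient libraries and 12.4 ± 3.97 FPKM in sufficient libraries. The summed levels of the plasma cell, CD8 T cell, neutrophil, and erythroid and platelet lists overlapped between the groups too. Among these lists limma called only the plasma cell gene Mzb1, which was higher. The most abundant plasma cell markers, Xbp1 and Irf4, were not called. Xbp1 measured 43.8 ± 3.32 FPKM in deficient libraries and 45.6 ± 3.50 FPKM in sufficient libraries. Irf4 was lower, at 15.1 ± 2.21 FPKM in deficient libraries and 22.1 ± 3.21 FPKM in sufficient libraries. The stromal and endothelial list, with 1 tested gene, did not overlap and had 0 called. The Treg and CD4 T cell list summed to 1956 to 2108 FPKM in deficient libraries and 2393 to 2610.1 FPKM in sufficient libraries, without overlap, and 7 of its 9 tested genes had a negative log2 fold change (median -0.28, 4 lower at an unadjusted p under 0.05). The called gene among them was Ctla4, an inhibitory receptor gene of Treg cells, which fell to 111 ± 11.2 FPKM in deficient libraries, against 375 ± 102 FPKM in sufficient libraries (limma adjusted p = 0.0174). In bulk RNA, other cells among the sorted ones and expression of these markers by the Treg cells themselves cannot be told apart. The part of either in the values of Ccr7, Cxcr4, Ccr9 and Il7r was not tested.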

How the data were processed

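Sorted CD4+YFP+ cells were profiled by RNA sequencing from libraries of total RNA made with a stranded kit, per the labels' protocols. The authors deposited FPKM (fragments per kilobase of transcript, scaled to the library's total) for 23997 genes, a unit taken from the table's name and values. Per the submitters' processing notes, the mm10 build, STAR 2.5.1, cutadapt 1.12 with Trim Galore 0.4.2, Cuffdiff 2.2.1, Cuffnorm 2.2.1 and FastQC were used. The sources used here do not give the settings, the annotation or whether counting used strand. Of 16 value columns, 8 matched a sample by name. The other 8 matched none and entered no result, although their values for the members were seen once when the table was opened.

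Depth was read from the steps of low FPKM values over genes with 1 annotated transcript in GENCODE M21, where 68.3% to 75.7% of values fell within 0.1 of a whole fragment (20% if spread evenly). It is approximate, so no count model was run and no counting interval is given. Columns of 1 group whose log ratios spread less than 1.5 times read sampling, over genes at 150 to 500 fragments, were averaged and counted as 1 library. R 4.3.3 and limma 3.58.1 were used to test log2(FPKM + 1) of every gene whose mean reached 1 FPKM, allowing a mean-variance trend, groups as the only term and Benjamini-Hochberg adjustment over all tested genes. The procedure was tested on simulated data with known changes. Exact two-sided permutation tests over libraries stand beside it.

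The members and lists were chosen with earlier results of these data known. Named genes were the members, Bcl11b, Foxp3 and Cd4, the called genes and the 2 next by p of each pathway list, the 2 most abundant markers of some cell types, and the 3 genes most like each of the 2 members of lowest p. Foxo1, Rgs2, Rgs14, Rgs16, Rgs19, the called markers outside that rule and the genes named for their spread between libraries were picked after values were seen. Alternatives covered the pseudocount, filter, scaling, empirical Bayes setting, merging, a replicate block and leaving out each column or library. Python 3.11.15, scipy 1.17.1 and matplotlib 3.10.9 were used for the rest.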

Additional observations from a re-analysis of the deposited data

How the results depend on the processing

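The members called lower numbered 0 with a pseudocount of 0.1, with no filter on low values, with a mean of at least 5 FPKM, with equal totals, with median ratio or quantile scaling and with no mean-variance trend, against 1 in the report. They were 2 with the 8 columns as separate libraries and ran from 0 to 1 when single columns were left out, with 0 without either deficient library. Members called higher were 0 under every alternative run. Genes called higher over the whole table were 124 with a pseudocount of 0.1, 91 with no filter, 73 at a mean of at least 5 FPKM, 341 with equal totals, 1004 with 8 separate columns, 65 to 216 with single columns left out, 11 and 8 without the first (replicates 1 and 3) or second (2 and 4) deficient library, and 121 without the sufficient library of replicates 1 and 3, against 205. Genes called lower were 8 with no filter, 40 at a mean of at least 5 FPKM, 30 with equal totals, 847 with 8 separate columns, 15 to 81 with single columns left out, and 5, 0 and 46 without those 3 libraries, against 74. Leaving out a library also removes a residual degree of freedom. Higher calls made up 73.5% of all calls in the report, 91.9% with equal totals or with no filter and 54.2% with 8 separate columns. Over the table, equal totals moved the median log2 fold change to 0.18.

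Directions turned for S1pr1 (0.0103) and Myl12a (0.0232) with equal totals, for Klf2 (0.30), Cd69 (0.16) and Ccl25 (0.21) without the second deficient library, and for Klf2 (0.14) and Cd69 (0.11) without sufficient replicates 1 and 3. Ccl25 ran from -0.38 to 0.0072 with single columns left out, positive without sufficient replicate 4. The cause was not tested. Ccr9, Il7r, S1pr4 and Gpr183 kept their direction and stayed uncalled in all 21 alternatives, and Ccr7 and Cxcr4 kept their direction.

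No label says whether the replicate numbers pair the samples. Deviations from the group means correlated at 0.03, 0.06, 0.13 and 0.09 for numbers 1 to 4. Of 8 columns, 6 correlated best with their own number. However, deficient replicate 1 correlated with sufficient replicate 3 at -0.07, and deficient replicate 3 with sufficient replicate 1 at -0.001. Replicates 1 and 3 were counted as 1 library in each group, so pairing of the libraries cannot be read from these values. With the replicate number as a block over the 8 columns, 4 members were called lower, namely Ccr7, Cxcr4, Klf2 and Cd69 (log2 fold changes -0.78, -2.06, -0.41 and -0.68, limma adjusted p = 0.00819, 0.00194, 0.0115 and 0.00987), with 776 genes (7.31%) called higher and 642 (6.05%) lower over the table. That fit counts repeated columns of 1 library as independent. The small number of libraries limits what can be detected for members that vary between them, whereas columns of 1 library at different depth gave like values (Cd69 at 148 and 153 FPKM in deficient replicates 1 and 3, at approximately 3040000 and 11800000 fragments).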
